A study of Oryza sativa with 18 samples.

Results

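Calcium sensors and the kinases they control were followed in the flag leaves of rice (Oryza sativa). The members are the rows of the deposited table whose protein description, from NCBI's non-redundant database (NR) or from Swiss-Prot, names a calmodulin, a calmodulin-like protein (CML), a calcineurin B-like protein (CBL), a CBL-interacting protein kinase (CIPK) or a calcium-dependent protein kinase (CDPK). This text rule found 186 of 38993 genes: 6 calmodulins, 59 CML, 15 CBL, 53 CIPK and 53 CDPK. It uses no measured value.

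The leaves were sampled at grain filling from Hanyou73, a hybrid rice bred for saving water and resisting drought, and from Hanhui3 and Huhan7B, the lines it was bred from. All of them were measured under drought, where irrigation was withheld at early grain filling, and in water, where irrigation continued. There were 3 libraries in each of the 6 groups (Hanyou73 under drought and in water, Hanhui3 under drought and in water, Huhan7B under drought and in water), 18 in all. Every library is a pool of flag leaves from several plants that shared a plot, so the errors and p-values below measure how such pools vary, and variation among plots is not covered.

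Stress, hormones and touch raise the free calcium of the plant cytosol for short times, and proteins with EF-hands, loops that hold a calcium ion, sense the rise. Calmodulins and CML proteins change shape on binding calcium and then bind other proteins, CBL proteins do the same with a single family of kinases, the CIPK, and a CDPK carries its EF-hands and its kinase domain in 1 chain. In leaves these proteins are known for acting on ion channels and pumps, on the oxidases that make reactive oxygen and on the abscisic acid response of guard cells.

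The deposited values are FPKM, fragments per kilobase of transcript scaled to library size, and they were compared as log2(FPKM + 1). A gene was tested where it reached 1 FPKM in at least 3 libraries, and was called where limma's moderated test gave a Benjamini-Hochberg adjusted p under 0.05 over all 22616 genes tested. FPKM summed to between 958893 and 1140989 per library, and steps between low values correspond to about 13100000 to 16400000 fragments. Across genes, libraries of the same group correlated with r of 0.982 to 0.989, against 0.837 to 0.957 between groups. Of 35 genes of leaf mesophyll markers (Rubisco small subunit, Rubisco activase and chlorophyll a-b binding proteins), 4 were listed at 0 in every library, and the list summed to at least 17665 FPKM in each library, so defining markers of the labelled tissue were present.

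Of the 186 members, 108 passed the filter: 4 calmodulins, 36 CML, 8 CBL, 30 CIPK and 30 CDPK. The other 78 include 23 listed at 0 in every library, and the highest single value among these 78 was 2.02 FPKM (Os01g0832450). OsCBL5 passed through the watered hybrid alone, and Os11g0171601, OsCML28 and OSJNBb0106M04.8 would not have passed without the 3 libraries of 1 group of the hybrid, so for these 4 a call that involves that group is a description. The other members passed without their highest group, and 83 reached 1 FPKM in all 18 libraries. The domain that a member's role calls for, an EF-hand for the sensors and a protein kinase domain for the kinases, is annotated for 96 of the 108. Those without it are 9 CDPK, 2 CML and 1 CIPK. They include P0450E05.15-1 (Os09g0514100), whose NR description and domains are those of a glycine oxidase, Os03g0836600, whose annotated domain belongs to reverse transcriptases, and short unnamed loci such as Os11g0171601, Os12g0169950, Os10g0539650 and Os09g0418375. The locus numbers of these 4 stand beside those of CDPK24, OsCDPK28, CDPK (Os10g0539600) and OsCIPK27, the kinases they match. That of Os09g0418375 lies between OsCIPK16 (Os09g0418000) and OsCIPK27 (Os09g0418500). The libraries were stranded, but the strand setting of the counting is not given in the sources used here, so reads of such a locus and of its neighbour cannot be told apart with certainty.

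Levels span a wide range. OsCIPK01, a CIPK, was the most abundant member, with a mean of 462 FPKM over the 18 libraries. CaM61 (Os01g0810300, calmodulin-like protein 1) followed at 371 FPKM, and the 4 tested calmodulins took the next places, at 223 FPKM for OsCam1-1, 213 for CALa, 211 for OsCaM3 and 199.9 for OsCam1-2. The most abundant CBL was CBL1 (Os10g0564800) at 55.4 FPKM, and the most abundant CDPK was OsCDPK19 at 92.5 FPKM. In 21 members at least 1 group mean reached 100 FPKM.

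The first question was how drought moved these genes in each genotype. In Hanyou73, 38 of 108 members rose and 46 fell, while 44.9% of all genes tested rose and 25.8% fell. In Hanhui3, 34 rose and 28 fell, against 35.1% and 18.5% of all genes. In Huhan7B, 32 rose and 34 fell, against 21.1% and 32.1% of all genes. The median log2 difference of the members was -0.06 in Hanyou73, 0.03 in Hanhui3 and -0.06 in Huhan7B, where all genes tested had medians of 0.17, 0.10 and -0.07. Changes of at least 2-fold were called for 13 members up and 17 down in Hanyou73 (12.3% and 7.99% of all genes), for 7 up and 5 down in Hanhui3 (4.07% and 3.08%) and for 4 up and 4 down in Huhan7B (3.45% and 3.98%). A second scaling of the libraries, by the median ratio to a common reference, set the medians of all genes at 0.023, 0.004 and 0.009 and gave 31 up and 52 down in Hanyou73, 28 and 32 in Hanhui3 and 36 and 26 in Huhan7B. Scaled, 34.9% of all genes rose and 33.0% fell in Hanyou73, 25.6% and 25.5% in Hanhui3, and 26.7% and 24.5% in Huhan7B. The excess of one direction in the list therefore turned round with the scaling in both parents and not in the hybrid. In bulk leaves, fewer cells of a type and less RNA per cell cannot be told apart.

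**Figure D1:**
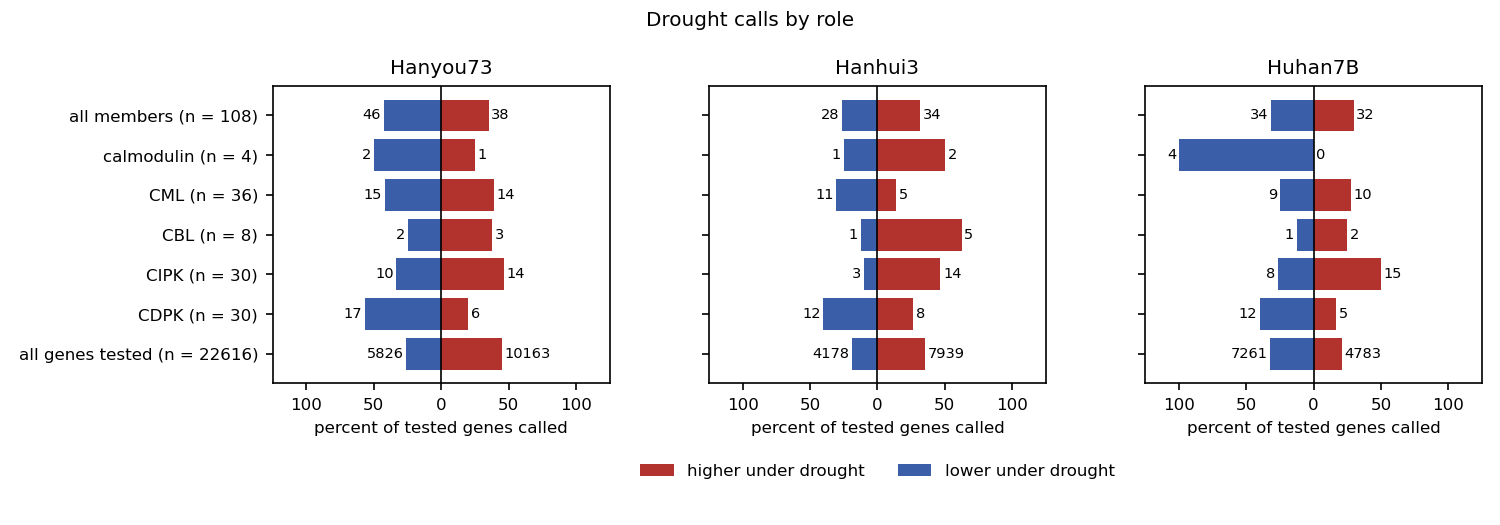
Share of tested genes called under drought, in percent, for each role and for all genes tested, with drought higher to the right and drought lower to the left. Numbers at the bars count genes. CDPK bars reach further to the left than to the right in all 3 genotypes (17, 12 and 12 lower), and CIPK bars further to the right (14, 14 and 15 higher), as do those of all genes in Hanyou73 and Hanhui3. Under the median-ratio scaling 13 CIPK rose and 13 fell in Hanyou73, where 34.9% of all genes rose and 33.0% fell.

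Marker lists of cell types moved with treatment and genotype. Mesophyll markers summed to between 25139 and 25500 FPKM in Hanyou73 under drought and between 17665 and 18823 in water. The sums were 97432 to 100643 under drought and 96312 to 105345 in water in Hanhui3, and 79926 to 87550 under drought and 60217 to 61116 in water in Huhan7B. Watered Huhan7B and droughted Hanyou73 stood apart in markers of pollen, a list of 40 genes of which 26 were at 0 throughout. The list summed to 850.75 to 911 FPKM in watered Huhan7B and to 397 to 416 FPKM in droughted Hanyou73. Its sums were 99.7 to 107 FPKM in watered Hanyou73 and 35.6 to 81.3 FPKM in the other groups. In Hanyou73, 5 of 6 tested pollen markers rose at least 2-fold under drought. Dividing-cell markers (77 genes, 14 at 0) summed to 9338 to 9625 FPKM in watered Huhan7B, against 3462 to 7922 FPKM elsewhere. The secondary wall and vascular list (6 genes, none at 0) summed to 143 to 150.1 FPKM under drought and 109 to 112 in water in Hanyou73. It summed to 101 to 103 FPKM under drought and 37.1 to 38.0 in water in Hanhui3, and to 23.1 to 25.9 in Huhan7B. Guard cell markers (11 genes, 2 at 0) summed to 21.4 to 23.3 FPKM under drought and 26.7 to 29.0 in water in Hanyou73. Both parents were higher, with 38.6 to 45.0 under drought and 36.3 to 42.6 in water in Hanhui3. Huhan7B had 58.2 to 63.3 under drought and 42.1 to 45.9 in water. Grain markers (54 genes, 29 at 0) lay between 100.4 and 154 FPKM. The part of these differences in the results below was not tested.

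The calmodulins, the most conserved calcium sensors, did not all move the same way. OsCam1-1 had 232, 235 and 235 FPKM under drought and 454, 452 and 473 in water in Hanyou73. In Hanhui3 it had 83.5, 86.3 and 87.7 FPKM under drought and 131, 131 and 124 in water, and in Huhan7B 147, 155 and 152 under drought and 289, 273 and 273 in water. In each genotype all 3 drought libraries lay below all 3 watered ones. The log2 differences were -0.97 ± 0.033 (SE, adjusted p = 4.87e-13), -0.57 ± 0.033 (SE, adjusted p = 1.22e-09) and -0.87 ± 0.033 (SE, adjusted p = 5.83e-12) in the order just given.

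OsCam1-2, which encodes the same protein as OsCam1-1, fell in Huhan7B alone. Its log2 difference in Hanyou73 was 0.36 ± 0.10 (275, 270.1 and 279.6 FPKM under drought, 219, 193 and 229.5 in water), which was called but was 0.19 and not called (adjusted p = 0.0954) under the median-ratio scaling. It fell in Huhan7B by 0.75 ± 0.10 (166, 142 and 152 FPKM under drought, 264, 247 and 262 in water). In Hanhui3 its difference was 0.14 ± 0.10 (SE, adjusted p = 0.28) and was not called. The sum of both genes was 509 ± 5.18 FPKM under drought and 674 ± 28.3 in water in Hanyou73, 242 ± 13.4 and 271 ± 23.5 in Hanhui3, and 305 ± 8.13 and 536 ± 16.2 in Huhan7B (SD, n = 3, drought before water). FPKM divides by gene length, so a sum still depends on how shared reads were split where the lengths of the genes differ. OsCaM3 fell by 1.00 ± 0.050 in Hanyou73 and by 0.55 ± 0.050 in Huhan7B and rose by 0.31 ± 0.050 in Hanhui3 (SE). CALa rose by 0.37 ± 0.048 in Hanhui3, fell by 0.47 ± 0.048 in Huhan7B and differed by 0.02 ± 0.048 in Hanyou73, which was not called. In counts, 1 of 4 calmodulins rose and 2 fell in Hanyou73, 2 rose and 1 fell in Hanhui3, and all 4 fell in Huhan7B. Under the median-ratio scaling 3 fell and the fourth was not called in Hanyou73, and the other counts were as above. Of all genes, 44.9% rose and 25.8% fell in Hanyou73, 35.1% and 18.5% in Hanhui3, and 21.1% and 32.1% in Huhan7B. Scaled, these shares were 34.9% and 33.0%, 25.6% and 25.5%, and 26.7% and 24.5%.

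Among the members' falls in Hanyou73, that of OsCML21, a CML, had the largest value. OsCML21 (Os05g0312600), an EF-hand protein named in the rule of membership, had 1.88, 2.03 and 1.63 FPKM in droughted Hanyou73 and 186, 196 and 208 FPKM in watered Hanyou73. Its levels were 0.12, 0 and 0 FPKM under drought and 0.98, 0.53 and 1.01 in water in Hanhui3, and 3.08, 1.45 and 3.02 under drought and 5.44, 5.36 and 5.56 in water in Huhan7B. The watered hybrid stood far above the other 5 groups, and drought libraries lay below watered ones in each genotype without overlap. It fell by 6.12 ± 0.16 in log2 in Hanyou73 (SE, adjusted p = 2.11e-14), by 0.81 ± 0.16 in Hanhui3 (adjusted p = 0.000476) and by 0.91 ± 0.16 in Huhan7B (adjusted p = 0.000156). In Hanhui3 it was listed at 0 in 2 drought libraries, so its log2 value there depends on the pseudocount.

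A pair of unnamed loci that match CML36 of Arabidopsis, Os11g0141400 and Os12g0138050, had the same high group. Os11g0141400 had 4.75, 7.60 and 4.31 FPKM under drought and 71.1, 72.0 and 72.3 in water in Hanyou73, and its 12 parental libraries held 0.71 to 3.05 FPKM. Os12g0138050 had 2.25, 2.44 and 2.83 FPKM under drought and 28.3, 27.3 and 29.3 in water in Hanyou73, and 0.57 to 1.50 FPKM in the parental libraries. The watered hybrid was again the high group in both. They fell by 3.51 ± 0.25 and 3.07 ± 0.14 in log2 in Hanyou73 (SE, adjusted p = 4.23e-09 and 2.65e-11), and neither was called in a parent. Both match the same protein, so counting may have split shared reads, but their sum moved the same way, with 8.06 ± 1.72 FPKM under drought and 100.1 ± 1.28 in water in the hybrid (SD, n = 3).

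OsCML4, for which drought tolerance after overexpression is known from rice, had 50.8, 53.7 and 51.5 FPKM under drought and 222, 211 and 230.4 in water in Hanyou73. Hanhui3 had 15.8, 19.2 and 15.8 FPKM under drought and 12.3, 17.0 and 17.3 in water, while Huhan7B had 57.6, 56.3 and 51.7 under drought and 116, 111 and 119.7 in water. Drought and water did not overlap in Hanyou73 and Huhan7B and overlapped in Hanhui3. The log2 differences were -2.07 ± 0.10 (SE, adjusted p = 3.53e-11) in Hanyou73, 0.13 ± 0.10 (SE, adjusted p = 0.297) in Hanhui3 and -1.06 ± 0.10 (SE, adjusted p = 2.68e-07) in Huhan7B. P0519E12.112 (Os07g0631700, described as CML45 or CML46) and OsCML27 fell in Hanyou73 as well, by 1.76 ± 0.11 and 1.58 ± 0.13 in log2. OsCML27 also fell in Hanhui3 (by 0.49 ± 0.13) and Huhan7B (by 0.51 ± 0.13). P0519E12.112 differed by -0.05 ± 0.11 and -0.20 ± 0.11 there, and neither difference was called.

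Other CML genes rose in the hybrid. OsCML15 had 60.1, 53.5 and 56.1 FPKM under drought and 3.20, 1.92 and 2.79 in water in Hanyou73, 1.98, 1.31 and 1.58 under drought and 1.89, 1.51 and 1.29 in water in Hanhui3, and 6.36, 5.80 and 6.54 under drought and 3.71, 2.23 and 2.54 in water in Huhan7B. Its rise was 4.00 ± 0.15 (SE, adjusted p = 1.91e-12) in Hanyou73 and 0.94 ± 0.15 (SE, adjusted p = 8.28e-05) in Huhan7B, and droughted Hanyou73 was the high group. OsCML31 had 227, 219 and 209 FPKM under drought and 31.5, 37.2 and 35.9 in water in Hanyou73, 1.00, 2.12 and 2.04 under drought and 5.09, 3.85 and 4.79 in water in Hanhui3, and 45.7, 51.3 and 40.5 under drought and 50.2, 44.2 and 46.5 in water in Huhan7B. It rose in the hybrid by 2.62 ± 0.14 in log2, fell in Hanhui3 by 1.06 ± 0.14 and differed by -0.04 ± 0.14 in Huhan7B, where the libraries overlapped. OsCML16 rose in Hanyou73 by 1.64 ± 0.15, with 171, 152 and 155 FPKM under drought and 50.2, 46.3 and 55.2 in water, and was called in neither parent.

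**Figure D2:**
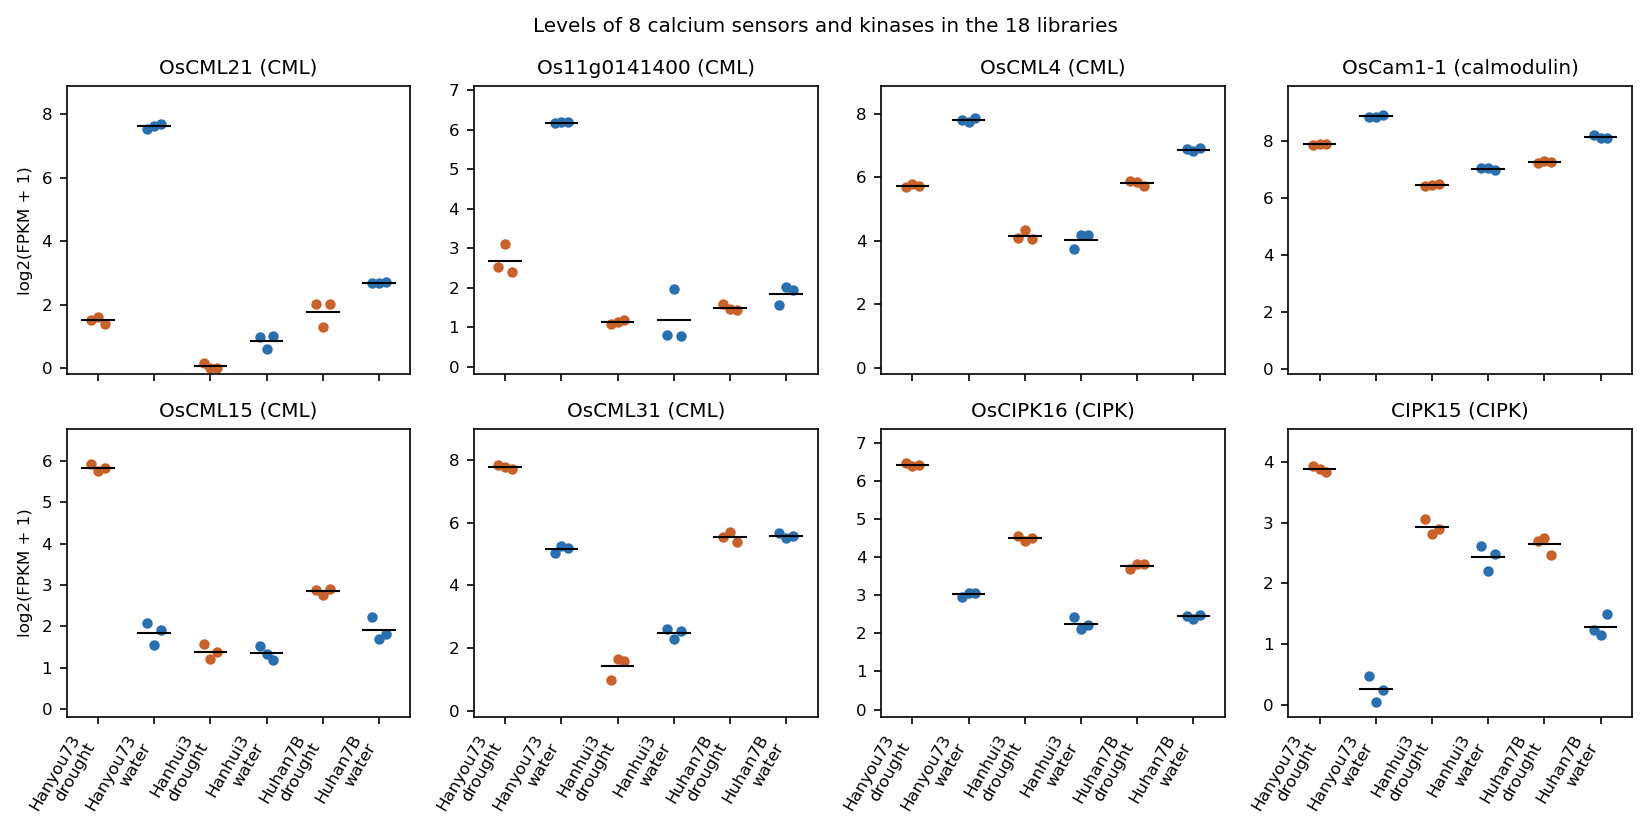
Levels of 8 members in each of the 18 libraries, as log2(FPKM + 1), with drought in orange and water in blue, 1 point per library and a bar at the mean of 3. In OsCML21 and Os11g0141400 the watered hybrid stands above the other 5 groups, and in OsCML15, OsCML31, OsCIPK16 and CIPK15 the droughted hybrid does.

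CaM61, the most abundant CML, moved in opposite directions in the parents. It had 189, 193 and 182 FPKM under drought and 131, 127 and 128 in water in Hanyou73, 572, 559 and 559 under drought and 726, 682 and 696 in water in Hanhui3, and 327, 362 and 357 under drought and 307, 291 and 291 in water in Huhan7B. All 3 pairs of groups were free of overlap, and the log2 differences were 0.54 ± 0.039, -0.32 ± 0.039 and 0.23 ± 0.039 (SE). OsCML9 rose in all 3 genotypes, by 1.25 ± 0.18 in Hanhui3, 0.78 ± 0.18 in Hanyou73 and 0.50 ± 0.18 in Huhan7B. The call in Huhan7B was lost without drought library 1 or 2 or without watered library 1 there, at 0.34 to 0.46. In Huhan7B alone its groups overlapped, at 7.17, 5.92 and 3.83 FPKM under drought and 2.87, 3.95 and 4.02 in water. Among the CML proteins as a whole, 14 of 36 rose and 15 fell in Hanyou73 (38.9% and 41.7%), 5 rose and 11 fell in Hanhui3 (13.9% and 30.6%), and 10 rose and 9 fell in Huhan7B (27.8% and 25.0%). Of all genes, 44.9% rose and 25.8% fell in Hanyou73, 35.1% and 18.5% in Hanhui3, and 21.1% and 32.1% in Huhan7B. Scaled by the median ratio, the CML counts were 11 and 16, 4 and 12, and 12 and 8. The scaled shares of all genes were 34.9% and 33.0%, 25.6% and 25.5%, and 26.7% and 24.5%. Unnamed Os09g0458900, described as CML15 in NR, fell in all 3 genotypes, by 1.20 ± 0.090 in Hanyou73, 0.69 ± 0.090 in Hanhui3 and 0.90 ± 0.090 in Huhan7B. OsCML22 and Os08g0558100, described as CML48, rose in Huhan7B by 0.81 ± 0.091 and 0.79 ± 0.10, while OsCML22 differed by -0.25 ± 0.091 in Hanyou73, a call that was lost without drought library 3 or without watered library 1 or 2 (-0.25 to -0.21).

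CBL proteins are the partners that bring CIPK kinases to membranes. OsCBL9 had 6.98, 7.38 and 8.04 FPKM under drought and 2.20, 1.73 and 1.48 in water in Hanyou73, 20.8, 21.9 and 20.4 under drought and 6.55, 8.23 and 7.97 in water in Hanhui3, and 6.86, 7.10 and 7.26 under drought and 6.59, 6.02 and 7.30 in water in Huhan7B. Drought lay above water without overlap in Hanyou73 and Hanhui3. It rose by 1.60 ± 0.10 and 1.36 ± 0.10 in log2 in those 2 genotypes (SE), and its difference of 0.08 ± 0.10 in Huhan7B was not called. CBL1, known with CIPK23 for switching on the root potassium channel AKT1, had 80.0, 82.1 and 81.1 FPKM under drought and 45.6, 45.0 and 50.0 in water in Hanyou73, 47.7, 50.9 and 55.1 under drought and 34.8, 40.7 and 41.6 in water in Hanhui3, and 51.7, 47.3 and 50.5 under drought and 65.7, 61.7 and 66.5 in water in Huhan7B. It rose by 0.78 ± 0.067 in Hanyou73 and 0.39 ± 0.067 in Hanhui3 and fell by 0.37 ± 0.067 in Huhan7B. OsCBL4, the rice counterpart of the salt tolerance sensor SOS3, fell in Hanhui3, where it had 2.43, 2.02 and 3.05 FPKM under drought and 5.29, 5.83 and 6.41 in water (-0.97 ± 0.16 SE, adjusted p = 0.000105). In all, 3 of 8 CBL rose and 2 fell in Hanyou73 (3 and 3 under the scaling), 5 rose and 1 fell in Hanhui3 (4 and 1), and 2 rose and 1 fell in Huhan7B (2 and 1). Of all genes, 44.9% rose and 25.8% fell in Hanyou73, 35.1% and 18.5% in Hanhui3, and 21.1% and 32.1% in Huhan7B. Scaled, these shares were 34.9% and 33.0%, 25.6% and 25.5%, and 26.7% and 24.5%.

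The CIPK kinases, which a bound CBL releases from their own inhibitory domain, rose in 14 of 30 and fell in 10 in Hanyou73 (46.7% and 33.3%, against 44.9% and 25.8% of all genes). In Hanhui3, 14 rose and 3 fell (46.7% and 10.0%, against 35.1% and 18.5%), and in Huhan7B 15 rose and 8 fell (50.0% and 26.7%, against 21.1% and 32.1%). Unscaled, the share that rose was near that of all genes in Hanyou73 and above it in both parents, and no test of the list was made. Under the median-ratio scaling the counts were 13 and 13 in Hanyou73 (43.3% and 43.3%, against 34.9% and 33.0% of all genes). In Hanhui3 they were 13 and 5 (43.3% and 16.7%, against 25.6% and 25.5%), and in Huhan7B 16 and 6 (53.3% and 20.0%, against 26.7% and 24.5%). OsCIPK16 had 88.3, 82.8 and 84.1 FPKM under drought and 6.69, 7.37 and 7.40 in water in Hanyou73, 22.3, 20.4 and 21.7 under drought and 4.35, 3.35 and 3.68 in water in Hanhui3, and 11.9, 13.2 and 13.0 under drought and 4.52, 4.20 and 4.60 in water in Huhan7B. Every drought library was above every watered library of any genotype. The rises were 3.40 ± 0.073 (SE, adjusted p = 2.83e-15) in Hanyou73, 2.23 ± 0.073 (SE, adjusted p = 2.76e-12) in Hanhui3 and 1.33 ± 0.073 (SE, adjusted p = 4.63e-10) in Huhan7B.

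CIPK15, known in rice for linking oxygen and sugar shortage to starch breakdown, had 14.3, 13.8 and 13.3 FPKM under drought and 0.39, 0.04 and 0.19 in water in Hanyou73. It had 7.36, 5.99 and 6.44 under drought and 5.11, 3.59 and 4.58 in water in Hanhui3, and 5.49, 5.74 and 4.53 under drought and 1.34, 1.21 and 1.82 in water in Huhan7B. The watered hybrid was the low group and the droughted hybrid the high one, and it rose by 3.62 ± 0.13 in log2 in Hanyou73, 0.49 ± 0.13 in Hanhui3 and 1.35 ± 0.13 in Huhan7B. With a pseudocount of 0.1 its value in Hanhui3 was not called. CIPK14 is a near-identical copy whose NR description is the same, so the split of reads between them is uncertain. It rose by 2.24 ± 0.085 in Hanyou73 (11.8, 12.3 and 13.2 FPKM under drought, 1.94, 1.80 and 1.77 in water) and by 0.78 ± 0.085 in Huhan7B, and was not called in Hanhui3. Both together summed to 26.2 ± 0.289 FPKM under drought and 2.04 ± 0.255 in water in Hanyou73, 23.9 ± 0.689 and 22.3 ± 1.76 in Hanhui3, and 18.3 ± 1.07 and 8.66 ± 0.923 in Huhan7B (SD, n = 3).

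OsCIPK06 rose in all 3 genotypes, by 2.49 ± 0.15 in Hanyou73, 0.94 ± 0.15 in Hanhui3 and 0.87 ± 0.15 in Huhan7B. OsCIPK05 did so with its largest rise in Hanhui3 (1.52 ± 0.10, with 11.5, 10.1 and 10.3 FPKM under drought and 3.18, 3.00 and 2.98 in water). OsCIPK01, the most abundant kinase, rose by 0.61 ± 0.039 in Hanyou73, 0.39 ± 0.039 in Hanhui3 and 0.37 ± 0.039 in Huhan7B, with group means of 252 ± 15.9, 611 ± 4.77 and 722 ± 3.70 FPKM under drought and 165 ± 3.52, 465 ± 17.8 and 559.6 ± 11.9 FPKM in water (SD, n = 3). OsCIPK04 fell in the hybrid, where it had 1.19, 0.85 and 1.07 FPKM under drought and 7.03, 7.57 and 6.52 in water (-1.98 ± 0.10 SE, adjusted p = 7.47e-11), and was called in neither parent. Os09g0418375, an unnamed locus with no annotated domain, is numbered between OsCIPK16 and OsCIPK27. It rose in Hanhui3, with 6.29, 5.76 and 4.75 FPKM under drought and 1.89, 0.50 and 2.08 in water (1.47 ± 0.20 SE, adjusted p = 2.15e-05). It rose in Hanyou73 as well, where it had 3.86, 4.59 and 3.26 FPKM under drought and was listed at 0 in all 3 watered libraries, and in droughted Huhan7B it was listed at 0.

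CK1 (OsCIPK31), OsCIPK07 and OsCIPK29 fell in Hanyou73 and Hanhui3 and rose in Huhan7B. CK1 had 90.4, 96.3 and 93.8 FPKM under drought and 253, 256 and 255 in water in Hanyou73, 148, 153 and 150.3 under drought and 316, 329.7 and 328 in water in Hanhui3, and 125, 128 and 128 under drought and 78.8, 67.5 and 70.3 in water in Huhan7B. Its log2 differences were -1.44 ± 0.043 (SE, adjusted p = 1.24e-13), -1.11 ± 0.043 (SE, adjusted p = 1.87e-11) and 0.81 ± 0.043 (SE, adjusted p = 3.72e-10), and no pair of groups overlapped. The locus number of CK1 follows that of OsCam1-1, which fell in all 3 genotypes. OsCIPK32 had calls opposite to those of CK1 in the parents, with 23.7, 24.9 and 25.5 FPKM under drought and 10.7, 8.76 and 9.63 in water in Hanhui3 and 22.8, 22.5 and 20.9 under drought and 25.0, 27.6 and 29.1 in water in Huhan7B. It rose by 1.27 ± 0.070 in Hanhui3, fell by 0.62 ± 0.070 in Hanyou73 and fell by 0.29 ± 0.070 in Huhan7B, where the scaled value of -0.18 was not called (adjusted p = 0.0522). The sum of OsCIPK32 and its close copy OsCIPK33 was 59.2 ± 2.93 FPKM under drought and 106 ± 2.51 in water in Hanyou73, 44.7 ± 0.693 and 20.5 ± 1.33 in Hanhui3, and 45.9 ± 4.23 and 58.9 ± 2.17 in Huhan7B (SD, n = 3).

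The loci matched to CDPK, kinases that couple calcium binding directly to kinase activity, fell more often than they rose. For 9 of the 30 tested no kinase domain is annotated. P0450E05.15-1, Os10g0539650, Os11g0171601 and Os12g0169950, which lack it, are among the falls in Hanyou73. Over all roles, the 96 members with their domain gave 35 up and 41 down in Hanyou73, 33 and 23 in Hanhui3, and 32 and 31 in Huhan7B. In Hanhui3 the restriction thus took falls from 28 to 23 and rises from 34 to 33. The 21 tested CDPK with a kinase domain were not counted apart. The excess of falls is therefore given for all 30 matched loci, and not for those 21. Of 30 tested, 6 rose and 17 fell in Hanyou73 (20.0% and 56.7%, against 44.9% and 25.8% of all genes), 8 rose and 12 fell in Hanhui3 (26.7% and 40.0%, against 35.1% and 18.5%), and 5 rose and 12 fell in Huhan7B (16.7% and 40.0%, against 21.1% and 32.1%). Under the median-ratio scaling the counts were 4 and 17 in Hanyou73 (13.3% and 56.7%, against 34.9% and 33.0% of all genes). In Hanhui3, 5 CDPK rose and 13 fell (16.7% and 43.3%, against 25.6% and 25.5%), and in Huhan7B 6 and 7 (20.0% and 23.3%, against 26.7% and 24.5%). Their FPKM summed to 618 ± 13.1 under drought and 899 ± 21.7 in water in Hanyou73, 477 ± 3.37 and 498 ± 6.65 in Hanhui3, and 531 ± 1.88 and 645 ± 6.28 in Huhan7B (SD, n = 3). CDPK4, OsCDPK13 and OsCDPK28 fell in all 3 genotypes, and in each the hybrid's fall was the largest value (1.31 ± 0.052, 1.31 ± 0.044 and 0.91 ± 0.048 in log2 in Hanyou73, 0.15 to 0.47 in the parents). The falls of CDPK4 and OsCDPK13 in Huhan7B were not called under the scaling, and that of CDPK4 in Hanhui3 was lost without drought library 1 or 3 or without watered library 2 or 3 (-0.15 to -0.11). CDPK9, known in rice for drought tolerance when overexpressed, had 3.99, 2.63 and 2.89 FPKM under drought and 4.82, 4.62 and 4.53 in water in Hanyou73, 2.60, 2.57 and 2.59 under drought and 7.98, 7.10 and 5.39 in water in Hanhui3, and 7.93, 9.48 and 9.32 under drought and 12.1, 11.6 and 11.2 in water in Huhan7B. It fell in all 3, with the largest value in Hanhui3 (-1.11 ± 0.12 SE, adjusted p = 2e-06), but in Huhan7B the call was lost under the scaling (-0.25) and without drought library 1 or without watered library 1 or 2 (-0.35 to -0.28).

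CDPK18, which phosphorylates the defence kinase MPK5 in rice, had 24.0, 25.2 and 24.6 FPKM under drought and 35.2, 34.5 and 37.3 in water in Hanyou73, 13.1, 12.8 and 14.2 under drought and 8.11, 9.29 and 9.91 in water in Hanhui3, and 10.4, 11.3 and 10.9 under drought and 26.1, 27.3 and 27.6 in water in Huhan7B. It rose in Hanhui3 (0.51 ± 0.063) and fell in Huhan7B (-1.24 ± 0.063) and Hanyou73 (-0.52 ± 0.063). OsCDPK8 fell by 1.01 ± 0.039 in Huhan7B (43.1, 41.3 and 40.5 FPKM under drought, 84.3, 87.6 and 83.3 in water) and by 0.88 ± 0.039 in Hanyou73. In Hanhui3 it differed by 0.11 ± 0.039, or -0.01 scaled, where it was not called, and the call was also lost without drought library 1 or 3 or without watered library 1 (0.09 to 0.11). OsCDPK5 rose in Hanhui3, with 6.17, 5.17 and 6.36 FPKM under drought and 2.56, 2.12 and 2.09 in water (1.08 ± 0.22 SE, adjusted p = 0.0008). OsCDPK19, the most abundant CDPK, lay between 80.9 and 110.4 FPKM in all 18 libraries and rose by 0.33 ± 0.044 in Hanyou73. In Hanhui3 it differed by 0.13 ± 0.044, a call that was lost under the scaling (0.01) and without drought library 1 or without watered library 1 or 2 (0.09 to 0.13).

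Of the loci that match a CDPK without its domains, Os11g0171601 was listed at 0 in all drought libraries and had 15.6, 10.1 and 7.21 FPKM in watered Hanyou73. In watered Hanhui3 it had 2.60, 0 and 0 FPKM and in watered Huhan7B it was listed at 0. It passed the filter through the watered hybrid, where it is high, so its calls support nothing further. Os12g0169950 fell in all 3 genotypes (-1.50 ± 0.12 in Hanyou73, -1.11 ± 0.12 in Hanhui3 and -0.52 ± 0.12 in Huhan7B), and so did Os10g0539650 (-1.08 ± 0.12, -0.73 ± 0.12 and -0.33 ± 0.12), whose call in Huhan7B was lost under the scaling, with no filter on low values, and without drought library 1 or 2 or watered library 2 or 3 (-0.31 to -0.27). P0450E05.15-1, annotated as a glycine oxidase in NR, had 2.82, 2.20 and 2.52 FPKM under drought and 9.42, 9.61 and 8.93 in water in Huhan7B (-1.56 ± 0.11 SE, adjusted p = 1.4e-08).

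Read across genotypes, 9 members rose in all 3, which is 8.33% of those tested and 9.03% of all genes. They were OsCIPK01, OsCIPK05, OsCIPK06, OsCIPK09, OsCIPK11, OsCIPK16, CIPK15, OsCML8 and OsCML9, so that 7 of 9 were CIPK. The rise of OsCIPK05 in Huhan7B lost its call without drought library 1 or 2 or watered library 2 or 3 (0.23 to 0.29), and that of OsCML8 in Hanyou73 without watered library 3 (0.12). As given before, the calls of CIPK15 in Hanhui3 and of OsCML9 in Huhan7B were lost under some alternatives as well. The sum of CIPK15 and its copy CIPK14 in Hanhui3 was 23.9 ± 0.689 FPKM under drought and 22.3 ± 1.76 in water (SD, n = 3). Those that fell in all 3 numbered 12 (11.1%, and 6.22% of all genes): 7 CDPK loci, of which Os10g0539650 and Os12g0169950 lack the domains, and OsCam1-1, OsCML21, OsCML27, OsCML29 and Os09g0458900. In 31 members (28.7%, and 21.3% of all genes) drought gave a rise in 1 genotype and a fall in another. With 8 members (7.41%, and 11.8% of all genes) no genotype gave a call, among them OsSOS2, the CIPK of the salt tolerance pathway. Under the median-ratio scaling 8 members rose in all 3 (7.41%, and 8.48% of all genes), all of them among the 9. The member that dropped out was OsCML8, whose scaled difference in Hanyou73 was -0.03 in place of 0.15 and was not called. Scaled, 9 fell in all 3 (8.33%, and 7.65% of all genes), of which 8 were among the 12. The share that fell in all 3 was thus near that of all genes once scaled.

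**Figure D3:**
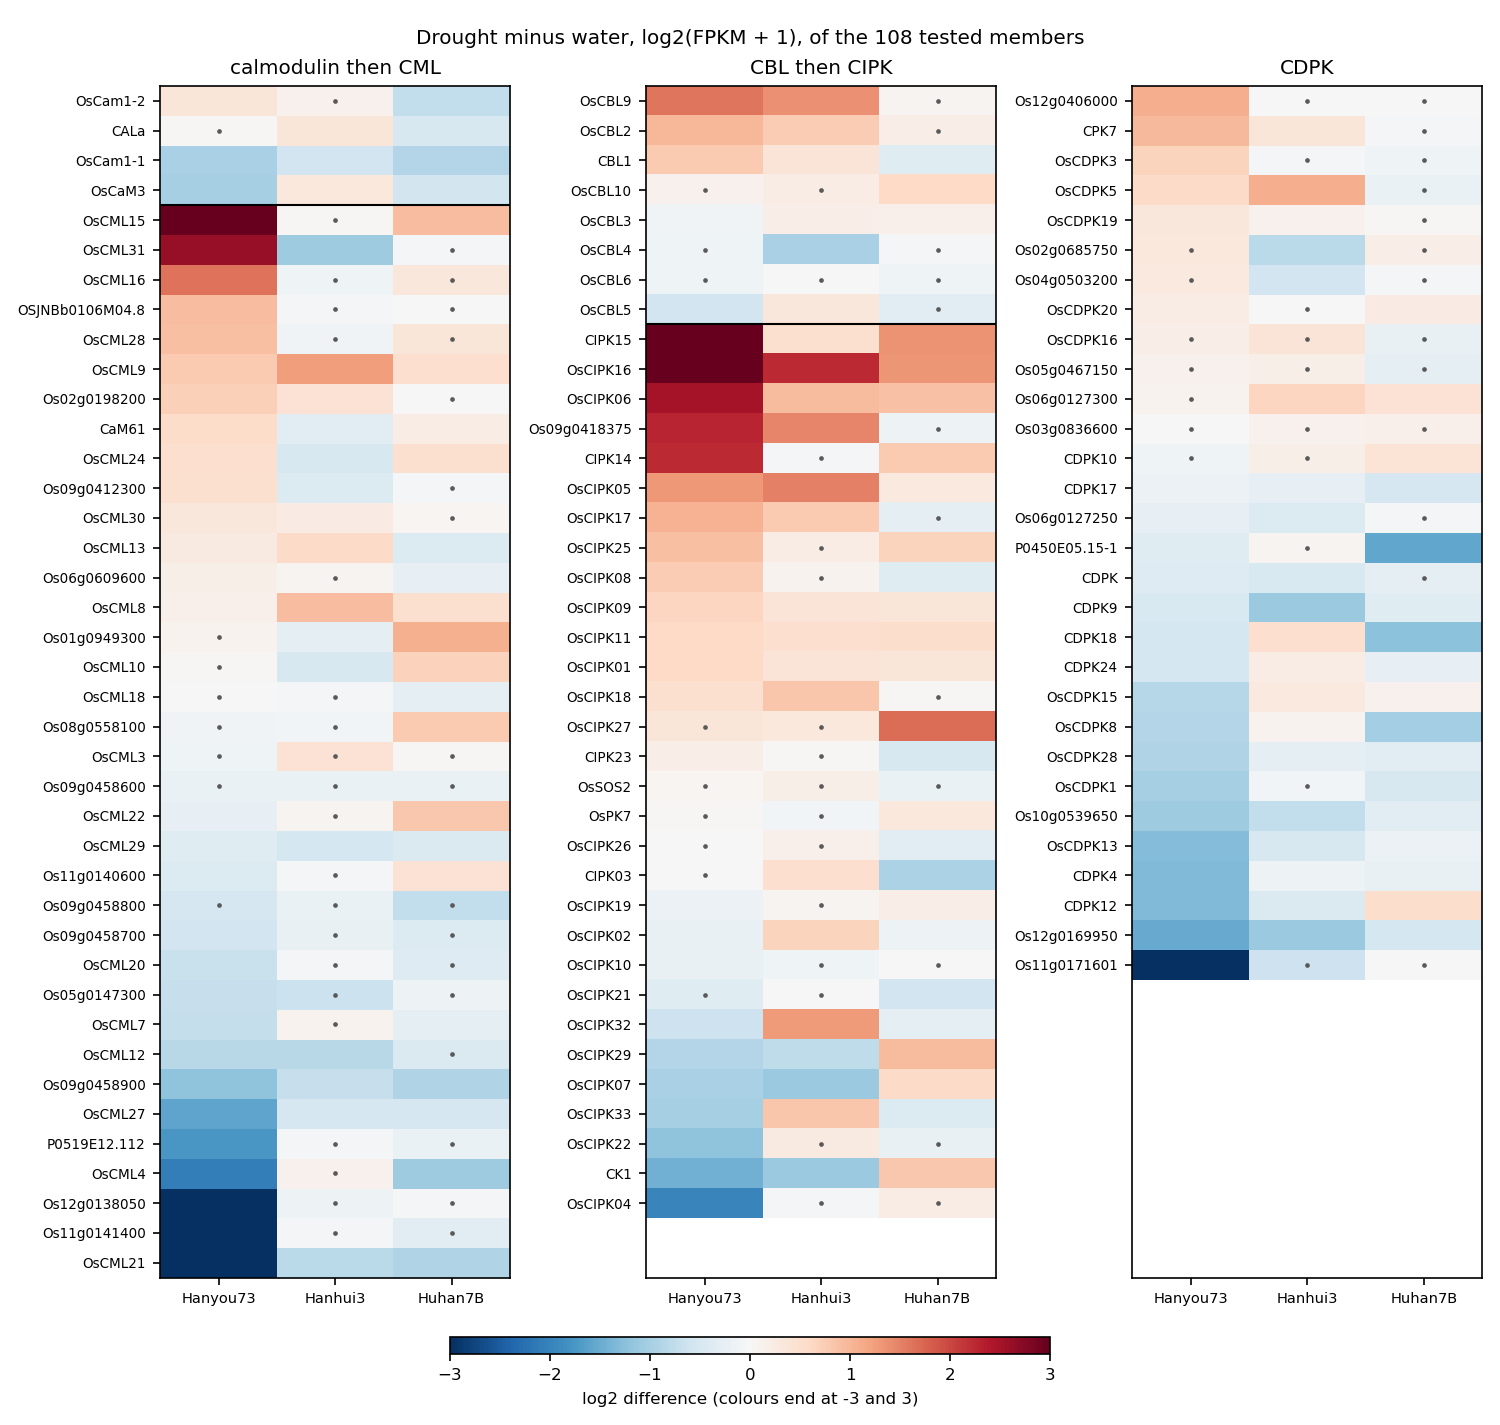
Drought minus water of each tested member in each genotype, as the difference in log2(FPKM + 1), ordered within a role by the value in Hanyou73. Red is higher under drought, blue lower, colours end at a size of 3, and a dot marks a difference that was not called. The Hanyou73 column holds the darkest cells, and cells of opposite colour in the 2 parental columns are seen for CK1, OsCIPK07, OsCIPK29, OsCIPK32 and CDPK18.

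Whether the hybrid responded as its parents did was tested as the hybrid's drought response minus the mean response of the parents. It was higher for 33 members and lower for 40, while 38.7% of all genes were higher and 19.5% lower. With the median-ratio scaling the members split into 21 higher and 45 lower, against 26.1% and 26.3% of all genes, and the median of all genes was 0.02 in place of 0.17. The largest positive differences were 3.51 ± 0.19 (SE, adjusted p = 3.6e-10) for OsCML15, 3.16 ± 0.17 (SE, adjusted p = 5.01e-10) for OsCML31 and 2.70 ± 0.16 (SE, adjusted p = 1.61e-09) for CIPK15. The largest negative differences, leaving out Os11g0171601 with its groups at 0, were -5.25 ± 0.19 (SE, adjusted p = 5.05e-12) for OsCML21, -3.31 ± 0.31 (SE, adjusted p = 2.2e-07) for Os11g0141400 and -2.96 ± 0.18 (SE, adjusted p = 1.42e-09) for Os12g0138050. In OsCIPK04, which the parents held between 3.87 and 6.05 FPKM in both treatments, the difference was -2.07 ± 0.12 (SE, adjusted p = 1.53e-09). By role, 1 calmodulin, 10 CML, 3 CBL, 12 CIPK and 7 CDPK were higher, and 2 calmodulins, 13 CML, 2 CBL, 10 CIPK and 13 CDPK were lower. Scaled, 8 CIPK and 2 CBL were higher and 12 CIPK and 3 CBL lower, so the balance of both groups turned round.

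The parents' responses were compared as that of Hanhui3 minus that of Huhan7B. They differed for 62 members, 36 higher and 26 lower, while 36.1% of all genes were higher and 17.1% lower. Scaled, the split turned to 25 higher and 37 lower, with a median of all genes of -0.01 in place of 0.18, so the balance of the list depends on the scaling. Scaled, 22.8% of all genes were higher and 25.7% lower. The members named next kept their directions under it. CK1 differed by -1.91 ± 0.062 (SE, adjusted p = 3.39e-12), OsCIPK29 by -1.73 ± 0.15 (SE, adjusted p = 1.58e-07) and OsCIPK07 by -1.68 ± 0.13 (SE, adjusted p = 3.12e-08), all with a fall in Hanhui3 and a rise in Huhan7B. For OsCIPK07 the NR description is that of a translocase subunit of the chloroplast, which shares the locus in RefSeq's synonyms, so reads of either product cannot be told apart. CDPK18 (1.75 ± 0.089 SE, adjusted p = 4.55e-10) and OsCIPK32 (1.56 ± 0.10 SE, adjusted p = 5.41e-09) rose in Hanhui3 and fell in Huhan7B. Os01g0949300, a CML, fell in Hanhui3 with 55.9, 64.3 and 57.1 FPKM under drought and 68.1, 78.1 and 67.3 in water, and rose in Huhan7B with 158, 164 and 168 under drought and 77.0, 71.5 and 82.2 in water. OsCML10, whose locus number lies close by, followed the same directions, with -0.48 ± 0.074 in Hanhui3 and 0.69 ± 0.074 in Huhan7B. Opposite calls in the parents were found for 19 members: 11 rose in Hanhui3 and fell in Huhan7B (10.2%, and 9.96% of all genes), and 8 did the reverse (7.41%, and 3.25% of all genes). Scaled, these were 6 and 9 members, against 4.73% and 5.95% of all genes. All 4 calmodulins had a higher response in Hanhui3, and 3 of them under the median-ratio scaling. Watered Huhan7B, the reference of its response, is also the group with the highest sums of pollen and dividing-cell markers.

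**Figure D4:**
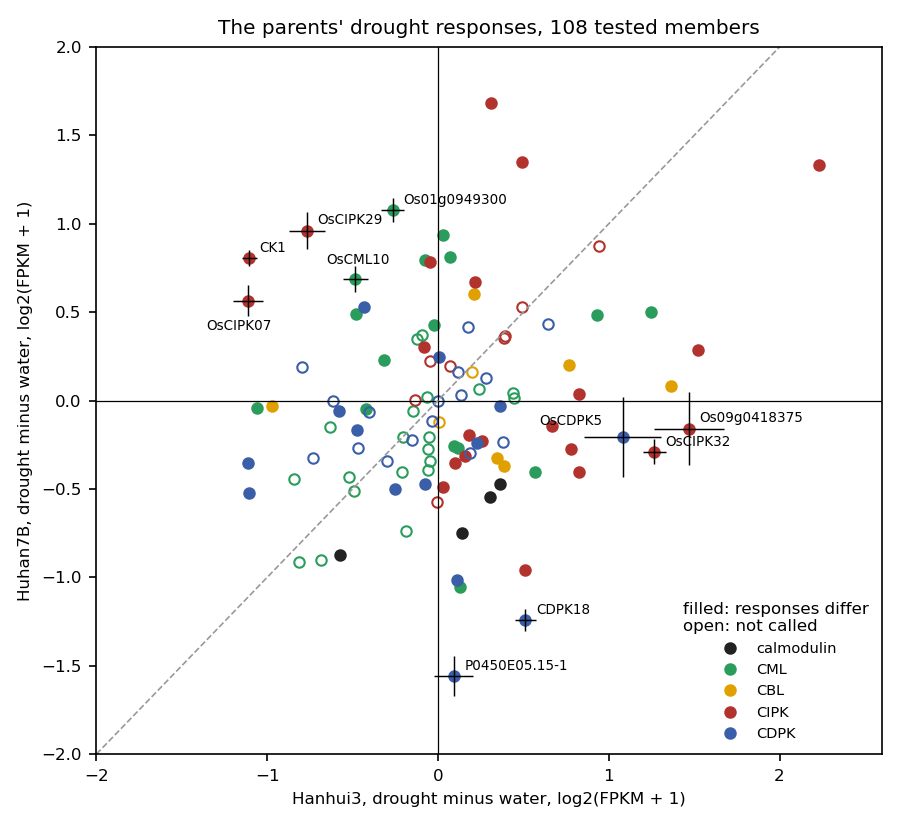
Drought minus water in Hanhui3 (horizontal) and Huhan7B (vertical), as differences in log2(FPKM + 1), for the 108 tested members coloured by role. Filled points had responses that differed between the parents, the dashed line marks equal responses, and bars on the 10 labelled members are SE. CK1, OsCIPK07 and OsCIPK29 lie in the upper left and CDPK18 and OsCIPK32 in the lower right.

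The levels of the hybrid were then set against those of its parents. Set against the mid-parent, the mean of both parents on the log2 scale, 67 members were higher and 24 lower under drought, while 58.4% of all genes were higher and 14.3% lower. In water 65 were higher and 22 lower, against 43.7% and 23.5% of all genes. Both counts of higher members include some that passed the filter only with libraries of the hybrid, such as Os12g0406000. The median-ratio scaling gave 43 and 34 under drought (34.0% and 28.3% of all genes) and 58 and 25 in water (35.4% and 31.8%), and brought the median of all genes under drought to 0.04 in place of 0.31. The members' median was 0.39 under drought and 0.46 in water, or 0.12 and 0.35 scaled. In these comparisons the mesophyll marker sum of the hybrid was far below that of both parents, with 21 of 27 tested markers below the mid-parent under drought and 24 of 27 in water. The guard cell marker sum was below that of both parents too, with 4 of 6 tested markers below the mid-parent in each treatment and 0 above. The part of these marker differences in the members' levels was not tested.

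Under drought the hybrid was above both parents in 48 members (44.4%, and 39.2% of all genes) and below both in 13 (12.0%, and 7.82% of all genes). In water it was above both in 49 members (45.4%, and 26.5% of all genes) and below both in 16 (14.8%, and 12.5%). The 48 include OsCML28, OSJNBb0106M04.8 and Os12g0406000, and the 49 include OsCBL5, Os11g0171601, OsCML28 and Os12g0406000. These members passed the filter only with libraries of the hybrid, so their place above both parents is a description. Those above in water were 2 calmodulins, 20 CML, 4 CBL, 9 CIPK and 14 CDPK, and those below were 3 CML, 2 CBL, 8 CIPK and 3 CDPK. Under drought, 2 calmodulins, 19 CML, 4 CBL, 10 CIPK and 13 CDPK were above and 3 CML, 7 CIPK and 3 CDPK below. With the median-ratio scaling, 25 members were above (23.1%, and 20.0% of all genes) and 22 below both parents (20.4%, and 16.4%) under drought, against 48 and 13 unscaled. In water 45 were above (41.7%, and 21.7% of all genes) and 20 below (18.5%, and 18.0%).

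The levels of single members rest on the same libraries as their drought responses. In water, OsCML21 differed from the mean of the parents by 5.84 ± 0.14 (SE, adjusted p = 3.7e-15) and from Huhan7B, the nearer parent, by 4.93 ± 0.16 in log2. Os11g0141400 and Os12g0138050 were 4.35 ± 0.25 and 3.92 ± 0.14 above Huhan7B. Os11g0171601 was above both as well, with the levels given before. Under drought, OsCML31 was 2.23 ± 0.14, OsCML16 2.97 ± 0.15 and OsCML15 2.99 ± 0.15 above Huhan7B, and OsCIPK16 1.94 ± 0.073 above Hanhui3, each the nearer parent (SE). Os12g0406000, a long locus that matches CDPK7 but has no annotated domain, was read in the hybrid and not in the parents: it had 39.5, 58.2 and 42.4 FPKM under drought and 23.9, 23.1 and 17.3 in water, and was listed at 0 in all 12 parental libraries. It passed the filter through the hybrid alone, and no fold is given for it.

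Below both parents were the 2 most abundant members. OsCIPK01 averaged 252 ± 15.9 FPKM in droughted Hanyou73, 611 ± 4.77 in droughted Hanhui3 and 722 ± 3.70 in droughted Huhan7B (SD, n = 3), and differed from the mean of the parents by -1.40 ± 0.034 (SE, adjusted p = 7.03e-15) under drought and by -1.62 ± 0.034 (SE, adjusted p = 7.71e-16) in water. CaM61 differed by -1.23 ± 0.034 (SE, adjusted p = 2.93e-14) under drought and by -1.82 ± 0.034 (SE, adjusted p = 2.05e-16) in water. In both genes, within a treatment, no library of the hybrid reached the lowest library of either parent. OsCML24 was lower too, with differences from that mean of -1.14 ± 0.12 under drought and -1.64 ± 0.12 in water. CIPK14 and OsCBL9 were below both parents in water. They differed from the mean of the parents by -2.13 ± 0.074 and -1.53 ± 0.086, and from the nearer parent by -1.53 and -1.45. OsCIPK04 and Os06g0127300, a kinase that matches CDPK14 of Arabidopsis, were below both under drought. Their differences were -1.54 ± 0.088 and -0.89 ± 0.10 from the mean and -1.46 and -0.87 from the nearer parent.

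**Figure D5:**
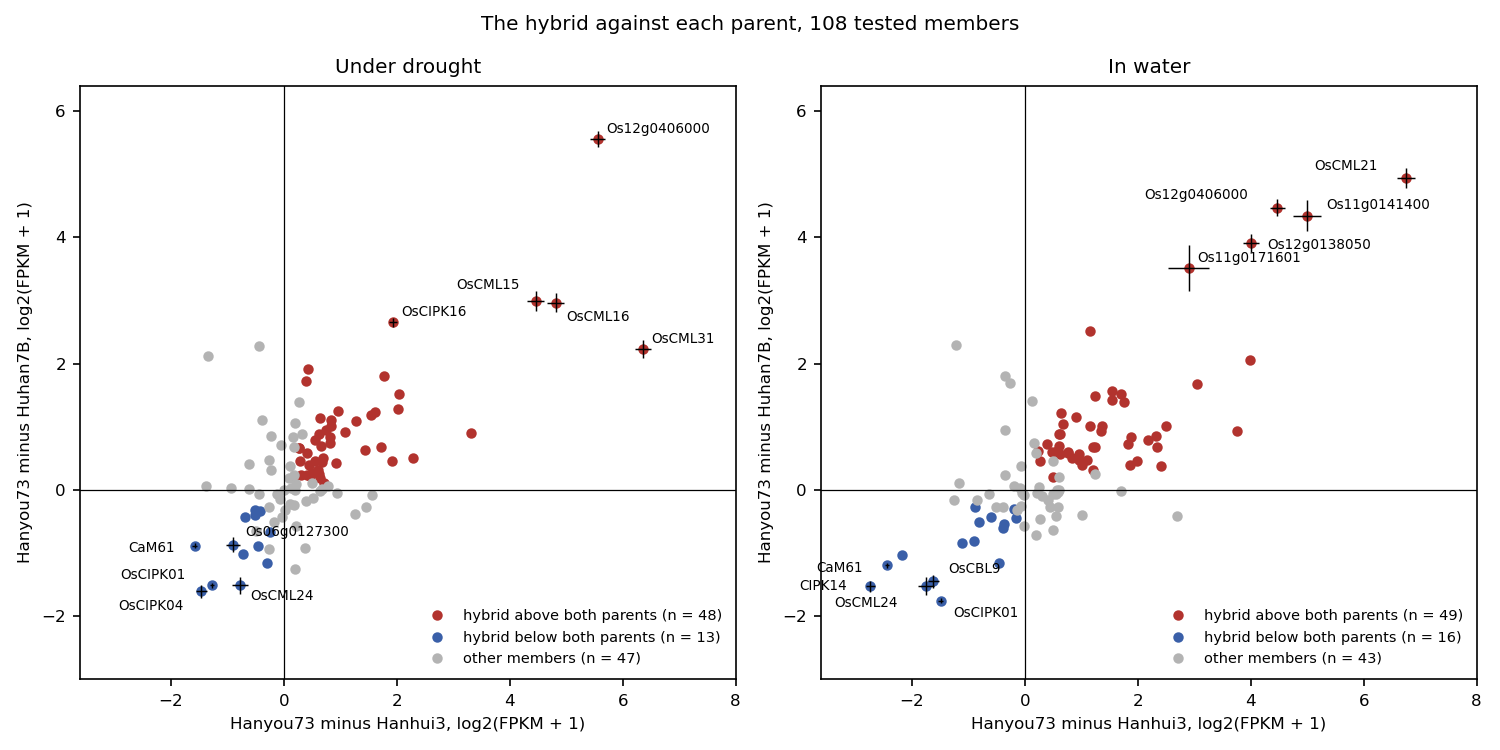
Hanyou73 minus Hanhui3 (horizontal) and Hanyou73 minus Huhan7B (vertical), as differences in log2(FPKM + 1), for the 108 tested members under drought (left) and in water (right). Red points were above both parents (48 under drought, 49 in water), blue points below both (13 and 16), and bars on labelled members are SE.

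Between the parents, Hanhui3 was higher than Huhan7B in 29 members and lower in 44 under drought, while 32.0% of all genes were higher and 26.9% lower. In water 23 were higher and 49 lower, against 25.2% and 41.2% of all genes. The median-ratio scaling gave 28 higher and 49 lower under drought (29.3% and 30.0% of all genes) and 36 and 39 in water (33.0% and 31.1%). Os03g0836600, which matches a CDPK by Swiss-Prot alone, had 14.4, 15.6 and 14.9 FPKM in droughted Hanhui3 and 0.34, 0.63 and 0.39 in droughted Huhan7B, and 12.8, 14.2 and 14.3 in watered Hanhui3 and 0.26, 0.35 and 0.27 in watered Huhan7B. OsCIPK25 was higher in Hanhui3 by 1.49 ± 0.12 (SE, adjusted p = 3.12e-08) under drought and 1.95 ± 0.12 (SE, adjusted p = 8.16e-10) in water. OsCML31 was lower in Hanhui3, with differences of -4.13 ± 0.14 (SE, adjusted p = 7.73e-13) under drought and -3.11 ± 0.14 (SE, adjusted p = 1.65e-11) in water. Os09g0412300 (matching CML45) and P0519E12.112 were lower in both treatments as well, with -2.42 ± 0.087 and -1.78 ± 0.11 under drought and -2.04 ± 0.087 and -1.93 ± 0.11 in water. CK1 and OsCIPK29 were higher in Hanhui3 by 2.16 ± 0.043 and 1.30 ± 0.11 in water. Os09g0458900 was higher by 1.49 ± 0.090 under drought and 1.27 ± 0.090 in water, and OsCBL9 by 1.45 ± 0.10 under drought. Os09g0418375, higher under drought too, was listed at 0 in droughted Huhan7B. OsCML4 and OsCML21 were lower in Hanhui3, with differences of -2.84 ± 0.10 and -1.82 ± 0.16 in water, and OsCML16 and OsCML27 with -1.85 ± 0.15 and -1.65 ± 0.13 under drought. Of the calmodulins, 3 of 4 were lower in Hanhui3 under drought and 4 of 4 in water, with and without the scaling.

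Other genes of calcium signalling were counted beside the members, and the most abundant gene of each list is given. The shares of all genes to read them against are those above: 44.9% up and 25.8% down in Hanyou73, 35.1% and 18.5% in Hanhui3, and 21.1% and 32.1% in Huhan7B. Scaled counts are to be read against 34.9% and 33.0%, 25.6% and 25.5%, and 26.7% and 24.5%. Calcium channels, which let calcium into the cytosol, numbered 51 tested, of which 20 rose and 17 fell in Hanyou73, 15 rose and 14 fell in Hanhui3, and 16 rose and 17 fell in Huhan7B. Under the median-ratio scaling the counts were 16 and 19, 11 and 18, and 20 and 15, so the balance turned round in each genotype. OsGLR3.2, a glutamate receptor-like channel, fell in all 3, by 0.58 ± 0.052 in Hanyou73, 0.78 ± 0.052 in Hanhui3 and 0.66 ± 0.052 in Huhan7B (SE). Annexins, calcium-dependent membrane proteins, rose in 5 of 6 in Hanyou73 and Hanhui3 and in 4 of 6 in Huhan7B, and in 4 of 6 in each genotype under the scaling. OsANN9 rose by 0.50 ± 0.053 in Huhan7B. It differed by 0.23 ± 0.053 in Hanhui3, a call that was lost under the scaling (0.10), and by 0.11 ± 0.053 in Hanyou73, which was not called.

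Of 34 calcium pumps and exchangers, which clear calcium from the cytosol, 13 rose and 18 fell in Hanyou73 (11 and 18 under the scaling), 7 rose and 12 fell in Hanhui3 (5 and 15) and 8 rose and 13 fell in Huhan7B (10 and 12). OsCAX1a, a vacuolar exchanger, had 46.3, 43.6 and 42.6 FPKM under drought and 184, 192 and 179.5 in water in Hanyou73. Its log2 difference was -2.04 ± 0.054 there, -0.79 ± 0.054 in Hanhui3 and 0.55 ± 0.054 in Huhan7B (SE), and all 3 were called. Calmodulin targets (42 tested) rose in 16 and fell in 15 cases in Hanyou73 (14 and 19 under the scaling), 17 and 7 in Hanhui3 (16 and 12), and 4 and 17 in Huhan7B (9 and 15). Os07g0623100, a calmodulin-binding transcription activator, rose by 0.38 ± 0.044 in Hanhui3 and was not called in Hanyou73 (0.03 ± 0.044) or Huhan7B (0.09 ± 0.044). Targets of CIPK and CDPK kinases (22 tested) rose in 8 and fell in 12 cases in Hanyou73 (8 and 13 under the scaling), 11 and 5 in Hanhui3 (11 and 7), and 9 and 8 in Huhan7B (9 and 6). Their most abundant gene was rbohE, an oxidase that makes reactive oxygen, which fell by 0.33 ± 0.047 in Hanyou73 and 0.66 ± 0.047 in Hanhui3. Its difference of 0.12 ± 0.047 in Huhan7B lost its call with the replicate block (adjusted p = 0.0522) and without drought library 1 or 3 or watered library 2 or 3 (0.09 to 0.13). Of 5 phospholipase C genes, whose enzymes release a second messenger from membrane lipids, 3 rose and 1 fell in Hanyou73, 4 rose in Hanhui3 (3 under the scaling), and 1 rose and 2 fell in Huhan7B (2 and 2). OsPI-PLC1 rose by 0.52 ± 0.044 in Hanyou73 and 0.59 ± 0.044 in Hanhui3 and was not called in Huhan7B (0.08 ± 0.044).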

How the data were processed

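RNA of flag leaves was sequenced as stranded poly(A) libraries, 3 per group. The deposited table holds FPKM per gene. The unit was read from the values, since the headers name none. Per the submitters' processing notes, fastp, HISAT2, StringTie, RSEM and DESeq2 were used with the build IRGSP-1.0. Versions, roles and the strand setting are not given in the sources used here. Members were found by searching the NR and Swiss-Prot descriptions, and gene names come from the table and RefSeq.

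Values were analysed as log2(FPKM + 1) with limma 3.58.1 in R 4.3.3 (moderated test with a trend, 6 group means over 18 libraries). Genes with at least 1 FPKM in at least 3 libraries were tested, with Benjamini-Hochberg adjustment over all of them and a threshold of 0.05. A difference on this scale understates the change of low genes. Members, lists and tests were chosen with earlier results of these data known. The members named are those with the largest called differences in each comparison and direction, at most 8 for the drought responses and 5 otherwise, among those with a group mean of at least 5 FPKM, together with the most abundant of each role. Further members complete a role, a pair of copies or a count, and were chosen after their values were seen.

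Depth was estimated from low values (under 0.5 FPKM, genes of 700 to 2500 bases, 300 bases taken off), of which 72.4 to 77.7% were whole numbers of fragments within 0.1, too few to recover counts. A single fragment on a gene of 1500 bases was worth 0.051 to 0.0639 FPKM. Alternatives were another pseudocount, other filters, median-ratio scaling, a replicate block, the groups of a contrast alone and each library left out. Scripts were tested on simulated data. No sequence is shown, and motif and protein features were not analysed here.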

Additional observations from a re-analysis of the deposited data

Results flagged for a closer look

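Responses to drought that differed between genotypes by a test of the difference itself are listed here for a closer look, as differences in log2(FPKM + 1) with their SE. Each was called by limma's test with Benjamini-Hochberg adjustment over all genes. They were picked as the largest of their comparison, so their sizes are a description.

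The response of Hanyou73 minus the mean response of Hanhui3 and Huhan7B was positive for OsCML15 (3.51 ± 0.19), OsCML31 (3.16 ± 0.17), CIPK15 (2.70 ± 0.16), CIPK14 (1.87 ± 0.10) and Os09g0418375 (1.63 ± 0.25). It was negative for OsCML21 (-5.25 ± 0.19), Os11g0141400 (-3.31 ± 0.31), Os11g0171601 (-3.21 ± 0.44), Os12g0138050 (-2.96 ± 0.18) and OsCIPK04 (-2.07 ± 0.12). For Os09g0418375 and Os11g0171601 at least 1 group is listed at 0 in all its libraries, so these values depend on the pseudocount. Os11g0171601 passed the filter on low values through the watered hybrid, where it is high, so it had to differ and its value is a description that supports nothing.

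The response of Hanhui3 minus that of Huhan7B was positive for CDPK18 (1.75 ± 0.089), P0450E05.15-1 (1.65 ± 0.16), Os09g0418375 (1.63 ± 0.29), OsCIPK32 (1.56 ± 0.10) and OsCDPK5 (1.29 ± 0.32). It was negative for CK1 (-1.91 ± 0.062), OsCIPK29 (-1.73 ± 0.15), OsCIPK07 (-1.68 ± 0.13), Os01g0949300 (-1.34 ± 0.095) and OsCML10 (-1.17 ± 0.10). Groups of 3 libraries are too small for a rule on single outlying libraries.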

How the results depend on the processing

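Of 362 counts of members recomputed under the alternatives, 357 stayed within 1.5 times of the value reported. The other 5 moved under the median-ratio scaling: members with a higher hybrid response than the parental mean were 21 (33 as reported), members of the hybrid above the mid-parent under drought 43 (67), members higher in Hanhui3 than in Huhan7B in water 36 (23), and members of the hybrid outside both parents under drought 25 above (48) and 22 below (13). All 1716 recomputed values of the members picked by the naming rule kept their direction and their side of the threshold under the alternatives run, which left out each library in turn among others. These members were picked for the largest called differences in the same libraries, so that outcome was close to given. Members and listed genes named beyond that rule did lose calls, as given beside them: under the median-ratio scaling OsCam1-2 and OsCML8 in Hanyou73, OsCDPK8, OsCDPK19 and OsANN9 in Hanhui3, and CDPK4, CDPK9, OsCDPK13, OsCIPK32 and Os10g0539650 in Huhan7B. With the 2 groups of the contrast alone, CDPK4, OsCDPK8 and OsCDPK19 in Hanhui3 and OsCML9 in Huhan7B were not called. With a library left out, members up in Hanyou73 numbered 36 to 38 and down 39 to 42, and no count moved by over 1.5 times. The replicate numbers gave no sign of pairing: deviations of same-numbered libraries correlated between -0.041 and 0.046, and 4 of 9 libraries correlated best with their own number. With the replicate block, drought calls were 38 up and 44 down in Hanyou73, 33 and 28 in Hanhui3 and 32 and 35 in Huhan7B, and no count changed by 1.5 times. Restricting members to those with the domain of their role, all alternatives for the counts outside both parents, and those for genes beyond the naming rule were added after seeing the data. For the contrasts that use all 6 groups, a fit on those groups alone is the same fit.

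Precision is limited by 3 pools per group, by the missing counts, and near 1 FPKM by steps of single fragments.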
